A study of Mus musculus with 9 samples.

Results

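Egr1, Fos, Fosb, Jun, Junb, Atf3, Maff, Klf6, Ier2 and Ier3 are immediate-early genes, 10 of the 26139 genes in the table of kidney transcripts, and were taken by name. Their transcripts are made within minutes of a stimulus, from factors already present in the cell, and are soon degraded. In the kidney they are known to be switched on by growth factors, cytokines, ischaemia and injury of the tubule, and also by handling of tissue before RNA is preserved. FOS and JUN proteins pair into the transcription factor AP-1, EGR1 is a zinc finger activator, ATF3 and MAFF are leucine zipper proteins that pair with other members of that class, and KLF6 binds GC-rich promoters.

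The libraries were made from total RNA of whole mouse kidney, 3 to a group. GQYS libraries came from Itgam-IRES-hCD89 mice gavaged daily with Gui-qi-yi-shen granules, a herbal preparation of Chinese medicine, for 5 months. IgAN libraries came from mice of the same genotype gavaged with saline. WT libraries came from C57/BL6 mice gavaged with saline. The allele name places human CD89, a receptor for IgA, at the locus of the myeloid integrin Itgam, and GQYS and IgAN mice both carry it. No group of wild-type mice received the granules, and the sources used here give no age, sex or littermate status. The labels do not say whether a group's libraries are from different animals, and p-values below describe the scatter of these libraries only.

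Values are FPKM, fragments scaled to gene length and to the library total, and tests were run on log2(FPKM + 1) with limma over 11617 genes, at a Benjamini-Hochberg adjusted p of 0.05. Whole reads worked out from the FPKM steps summed to between 30573769 and 38173879 per library. IgAN replicate 1 and WT replicate 1 lay away from the other libraries on the first principal component, at 23.8 and 28.1, with the rest at 3.09 or lower. Of all tested genes Egr1 had the heaviest weight on that component, which held 41.9% of the variance. The mitochondrially encoded share of reads was 18.6% in WT replicate 1 and 7.81% to 13.3% in the others. Urothelium markers summed to 14.6 FPKM in WT replicate 3 and to at most 5.38 in the others. Markers of the proximal tubule were present in every library, summing to between 1878 and 2508 FPKM. The lowest sums were 1878 in WT replicate 1 and 1946 in IgAN replicate 1. As mean z-scores, which weigh each gene alike, these libraries were at -1.23 and -1.27, with -0.10 to 1.11 in the others. Endothelium markers were also lowest there, at mean z-scores of -1.13 and -1.24. The part of these differences in the members' values was not tested. Results that rest on WT replicate 1 or IgAN replicate 1 are given with and without that library below.

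Start-site windows from RefSeq on build GRCm38.p6 were found for 8 members, each running from 250 bases before the annotated start to 50 after it. Maff and Klf6 are shown because they are the members that passed the test between IgAN and WT. Jun and Ier3 are examples of members that did not. Fos, Junb and Atf3 did not pass either and have windows, but are not shown. The members shown include every one with TGACNTCA. For Maff the window shown is the only one of 3 with an EGR site. The Maff window is chr15:79347270-79347569 on the plus strand, Klf6 is chr13:5861239-5861538 on the plus strand, Jun is chr4:95052173-95052472 on the minus strand and Ier3 is chr17:35821463-35821762 on the plus strand. Capitals mark TGACNTCA, the EGR site GCGNGGGCG and the kB site known as a binding sequence of NF-kappaB factors, on either strand.
Maff: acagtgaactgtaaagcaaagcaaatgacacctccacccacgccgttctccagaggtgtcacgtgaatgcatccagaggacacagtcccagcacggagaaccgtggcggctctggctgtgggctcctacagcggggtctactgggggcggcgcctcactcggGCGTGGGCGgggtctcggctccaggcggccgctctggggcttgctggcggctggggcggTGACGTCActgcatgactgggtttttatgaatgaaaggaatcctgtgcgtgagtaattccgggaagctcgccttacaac
Klf6: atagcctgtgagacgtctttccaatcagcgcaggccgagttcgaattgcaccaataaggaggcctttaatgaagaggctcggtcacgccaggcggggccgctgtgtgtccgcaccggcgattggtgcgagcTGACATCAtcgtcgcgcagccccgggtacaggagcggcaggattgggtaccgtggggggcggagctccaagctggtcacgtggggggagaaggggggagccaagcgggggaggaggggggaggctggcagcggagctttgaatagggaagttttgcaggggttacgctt
Jun: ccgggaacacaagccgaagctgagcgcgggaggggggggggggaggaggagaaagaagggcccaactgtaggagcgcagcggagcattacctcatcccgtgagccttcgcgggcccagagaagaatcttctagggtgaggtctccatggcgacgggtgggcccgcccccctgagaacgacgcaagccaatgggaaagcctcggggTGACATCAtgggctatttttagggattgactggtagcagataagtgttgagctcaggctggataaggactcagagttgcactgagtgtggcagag
Ier3: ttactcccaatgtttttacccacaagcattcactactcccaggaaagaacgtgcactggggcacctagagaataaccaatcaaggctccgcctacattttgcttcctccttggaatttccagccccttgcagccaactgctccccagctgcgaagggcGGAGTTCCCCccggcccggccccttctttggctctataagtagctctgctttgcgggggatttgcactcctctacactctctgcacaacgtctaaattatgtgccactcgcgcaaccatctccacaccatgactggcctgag
In Maff the capitals read GCGTGGGCG at base -88 and TGACGTCA, the palindromic cyclic AMP response element or CRE, at base -29, counted from the start. Klf6 held TGACATCA at base -119 and Jun held the same letters at base -45. Ier3 held GGAGTTCCCC, a kB site, at base -92. TGACNTCA, which takes in every CRE match, was searched after the windows had been read, and 3 of the 8 members held it in at least 1 window, against 8.83% of the 32851 mouse windows searched. The share of all windows with the CRE alone was 1.79%, and Maff was the only member with it. EGR sites were in Fosb and Maff and in 5.55% of all windows, and kB sites were in Fos, Fosb, Maff and Ier3 and in 4.51% of all windows. The AP-1 site TGANTCA, present in 7.81% of all windows, and the CArG box of serum response factor, present in 1.63%, had no match in the windows of these 8 members. That leaves Egr1 and Ier2 unsearched for either, and sites further than 250 bases before a start were not looked for. Maff has 3 annotated windows and so more chances of a match. A match describes these letters only.

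Levels differed widely among the 10 genes. Ier3, which encodes a short-lived regulator of survival signalling, was the most abundant in each group, at a mean of 19.9 ± 1.41 FPKM in GQYS, 31.3 ± 5.08 in IgAN and 35.9 ± 16.6 in WT (SD, n = 3 each). Jun, Junb, Klf6 and Ier2 averaged between 5.51 and 16.3 FPKM in every group. Egr1 averaged 3.42 FPKM in GQYS, 5.04 in IgAN and 25.5 in WT. Fos, Atf3, Maff and Fosb lay below 4 FPKM on average in all groups. Neighbours in this order mostly overlapped, as Fos at 0.608 to 1.06 FPKM and Maff at 0.747 to 1.12 FPKM did in GQYS. Fosb had the lowest mean in each group and reached 1 FPKM in 1 library, IgAN replicate 3, so it was not tested.

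**Figure D1:**
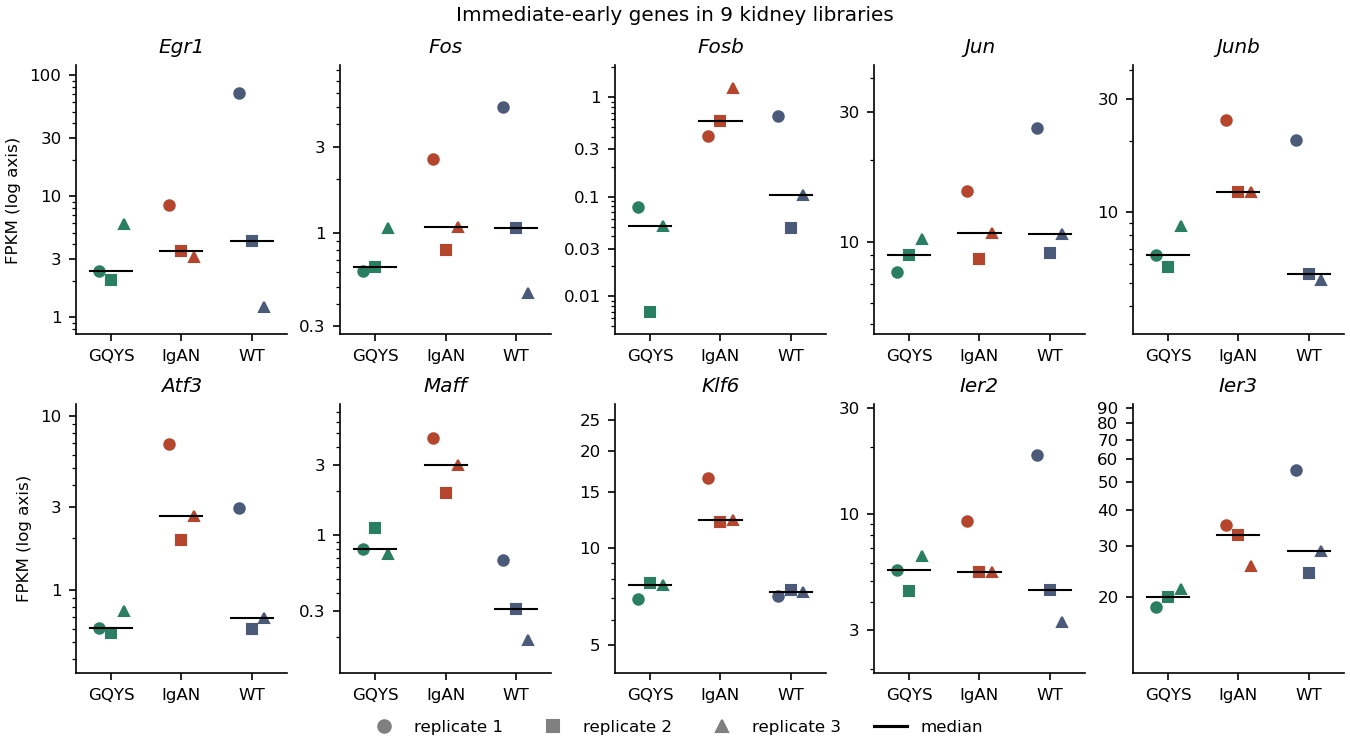
FPKM of each of the 10 genes on a log axis, with 1 point per library, marker shape for the replicate number and a line at the group median. WT replicate 1 is the highest point for Egr1, Fos, Jun, Ier2 and Ier3, and the IgAN points lie above all others for Maff and Klf6.

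Egr1, the zinc finger activator, varied most. It stood at 2.39, 2.03 and 5.84 FPKM in GQYS replicates 1 to 3, at 8.49, 3.49 and 3.15 in IgAN and at 71.0, 4.29 and 1.22 in WT. WT replicate 1, with 7675 reads on the gene, was 25.8 times the mean of the other WT libraries, and WT replicate 3 was the lowest of all 9. The groups overlapped. The log2 change was -0.75 ± 1.02 (SE) for IgAN against WT, with an adjusted p of 0.889 by limma, and it was 0.71 without WT replicate 1, so its direction depended on that library. Its relative Egr2, named after its values were seen, showed 0.914 FPKM in IgAN replicate 1 and 0.870 FPKM in WT replicate 1, and at most 0.178 elsewhere.

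The FOS genes were scarce. Fos was at 0.608, 0.641 and 1.06 FPKM in GQYS, at 2.57, 0.801 and 1.08 in IgAN and at 5.03, 1.06 and 0.460 in WT. WT replicate 1 and IgAN replicate 1 were again highest, and all groups overlapped. Fosb, a close relative of Fos, was at 0.0790, 0.00703 and 0.0507 FPKM in GQYS, at 0.407, 0.579 and 1.23 in IgAN and at 0.647, 0.0485 and 0.103 in WT. These Fosb values rest on 1 to 10 recovered reads per GQYS library, 47 to 155 per IgAN library and 7 to 86 per WT library. Here IgAN replicate 3 was highest, every GQYS library was below every IgAN library, and WT replicate 1 fell inside the IgAN range. The 2-sided exact permutation p for GQYS against IgAN was 0.1, the smallest that 3 against 3 libraries allow.

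Among the JUN genes, Jun itself was at 7.79, 8.96 and 10.3 FPKM in GQYS, at 15.4, 8.66 and 10.8 in IgAN and at 26.2, 9.13 and 10.7 in WT. Outside WT replicate 1 and IgAN replicate 1 its values covered a narrow span, and the groups overlapped. Junb, often a weaker activator than Jun, was at 6.60, 5.87 and 8.74 FPKM in GQYS, at 24.6, 12.1 and 12.1 in IgAN and at 20.1, 5.44 and 5.15 in WT. Every IgAN library exceeded every GQYS library and also WT replicates 2 and 3, while WT replicate 1 lay within the IgAN range. Set against each other within a library, Junb divided by Jun was 0.846, 0.655 and 0.853 in GQYS, 1.6, 1.40 and 1.12 in IgAN and 0.766, 0.596 and 0.482 in WT. All IgAN libraries were above 1 and all others below it, WT replicate 1 included. The ratio was chosen after values were seen and was not tested.

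Across the FOS and JUN family, Jund was the leading transcript in every library, between 37.1% and 62.8% of the summed FPKM. Jund is known as the member least dependent on stimulation. The sum of 7 family genes was 45.3, 46.7 and 55.0 FPKM in GQYS, 101, 56.3 and 65.4 in IgAN and 86.5, 39.8 and 43.7 in WT. IgAN replicate 1 and WT replicate 1 had the largest sums but differed in makeup, since Jun took 15.3% of the sum in that IgAN library and 30.3% in that WT library. Fosl1, named after its values were seen, was at 3.47 FPKM in IgAN replicate 1 and at no more than 0.123 FPKM in any other library.

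**Figure D2:**
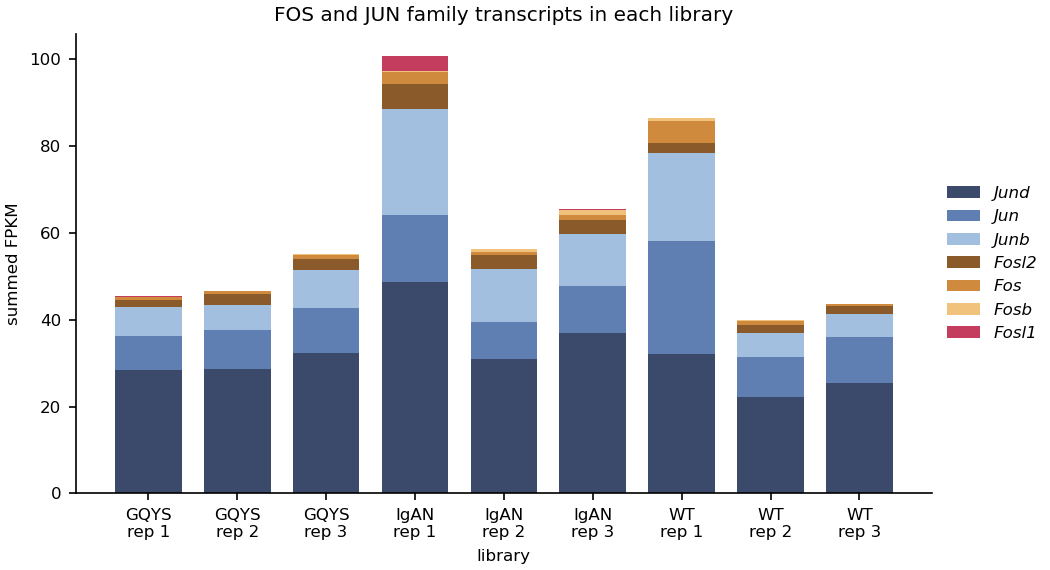
Summed FPKM of 7 FOS and JUN family genes in each library, stacked by gene. IgAN replicate 1 reaches 101 and WT replicate 1 reaches 86.5, with Jund at 48.2% and 37.1% of those sums.

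Atf3, a stress-induced leucine zipper protein that often represses transcription, was at 0.603, 0.564 and 0.759 FPKM in GQYS, at 6.90, 1.94 and 2.68 in IgAN and at 2.96, 0.596 and 0.687 in WT. All IgAN libraries were above all GQYS libraries, and WT replicate 1 was the only WT library to enter the IgAN range. Maff, a small MAF protein without an activation domain, was at 0.809, 1.12 and 0.747 FPKM in GQYS, at 4.65, 1.95 and 3.0 in IgAN and at 0.674, 0.310 and 0.192 in WT. The 3 groups did not overlap for Maff, with IgAN highest and WT lowest. The filter on low values asked for 1 FPKM in 3 libraries, and Atf3 and Maff each reached it in the 3 IgAN libraries and in only 1 other, so they were tested because they are high in IgAN.

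Klf6, a Krüppel-like factor induced in injured kidney, was at 6.95, 7.78 and 7.67 FPKM in GQYS, at 16.5, 12.1 and 12.2 in IgAN and at 7.09, 7.41 and 7.30 in WT. IgAN stood above both other groups, which overlapped. WT replicate 1 did not stand out here, and its Klf6 value was 0.964 times the mean of the other WT libraries. Ier2, a nuclear protein of the early response, was at 5.56, 4.51 and 6.46 FPKM in GQYS, at 9.34, 5.45 and 5.46 in IgAN and at 18.4, 4.52 and 3.25 in WT. Ier2 followed WT replicate 1 and IgAN replicate 1 in the way of Egr1. Ier3 was at 18.4, 20 and 21.3 FPKM in GQYS, at 35.5, 32.8 and 25.6 in IgAN and at 54.8, 24.1 and 28.7 in WT, and the GQYS libraries were the lowest of the 9.

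Some members peaked in IgAN libraries and others in 1 WT library. IgAN replicate 1 held the top value for 4 of 10 members, IgAN replicate 3 for Fosb and WT replicate 1 for 5. Over all tested genes 19.5% were highest in IgAN replicate 1 and 13% in WT replicate 1. A wider list of 56 immediate-early genes was chosen with earlier results of these data known. Of these 56, 35 were highest in IgAN replicate 1 and 9 in WT replicate 1. The ratio of WT replicate 1 to the mean of the other WT libraries was largest for Egr1, then Fosb at 8.56 times, Fos at 6.63, Ier2 at 4.73, Atf3 at 4.62, Junb at 3.79, Maff at 2.68, Jun at 2.65 and Ier3 at 2.08, with Klf6 last. Other genes high in that library, named after their values were seen, were the growth arrest gene Gadd45g at 94.0 FPKM, against 16.9 and 19.5 in the other WT libraries, and the nuclear receptor Nr4a1 at 9.92 FPKM, against 1.46 and 1.04. IgAN replicate 1 carried the highest injury list, a summed 1464 FPKM over 12 genes, with GQYS at 441 to 601, the other IgAN libraries at 584 and 708 and WT at 462 to 489. Havcr1, the tubular injury marker KIM-1, was at 43.8 FPKM there and at most 1.79 elsewhere, and was at 0.282 in WT replicate 1. The part of injury, or of mitochondrial share, in the members' values was not tested.

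**Figure D3:**
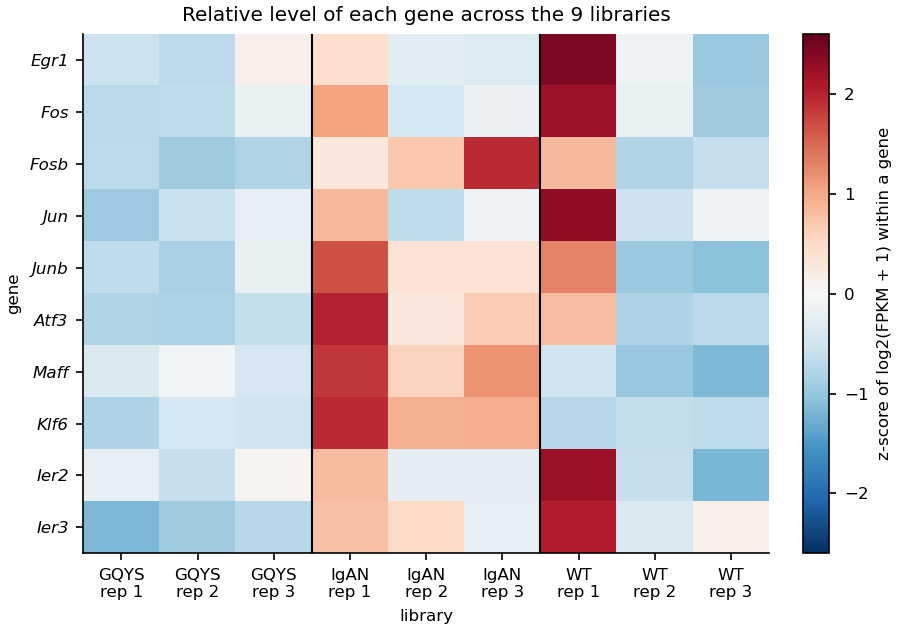
Level of each gene in each library as a z-score of log2(FPKM + 1) over the 9 libraries, red high and blue low, with groups from left to right GQYS, IgAN and WT. WT replicate 1 is red for Egr1, Fos, Jun, Ier2 and Ier3 but not for Maff or Klf6, which are red in all 3 IgAN libraries.

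The spread between libraries of a group set how much could be seen. On the log2(FPKM + 1) scale the pooled SD within groups was 1.6 for Egr1, higher than for any other tested gene. It was 0.72 for Ier2, 0.70 for Fos, 0.68 for Junb, 0.61 for Atf3, 0.51 for Jun, 0.38 for Ier3 and 0.32 for Maff. The median over tested genes was 0.18, and Klf6 alone of the 9 tested members lay below it, at 0.15. Within WT the SD of Klf6 was 0.029, lower than for all but 1.95% of tested genes.

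**Figure D4:**
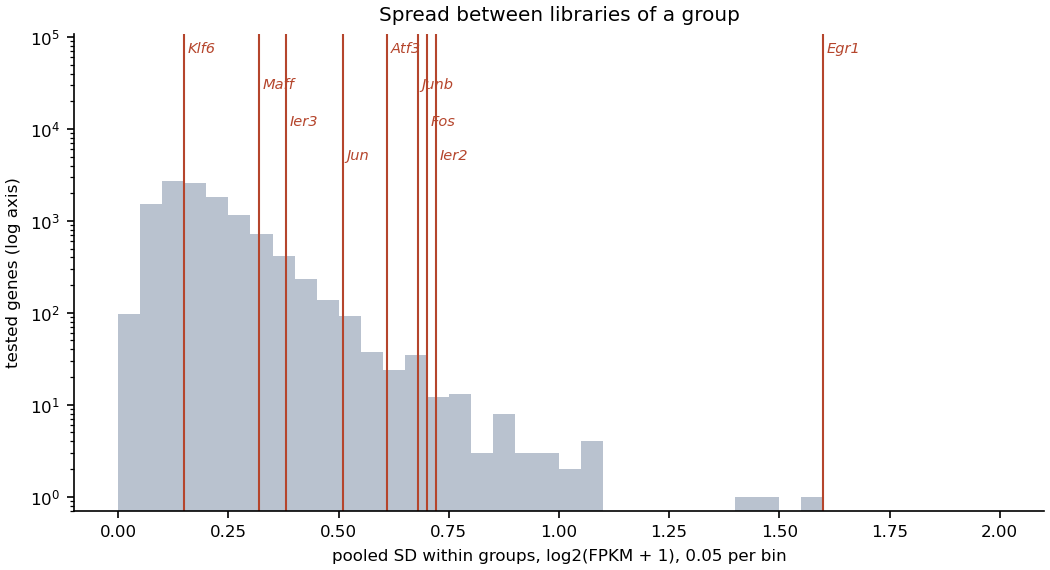
Number of tested genes, on a log axis, by pooled SD within groups of log2(FPKM + 1), with a line at each of the 9 tested members. Klf6 lies at 0.15, near the middle of all genes, and Egr1 at 1.6 lies at the far end.

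Kidneys of IgAN mice held more Klf6 transcript than WT kidneys, and Maff was higher too, and both calls were lost with no filter on low values. Klf6 averaged 13.6 ± 2.52 FPKM in IgAN and 7.27 ± 0.164 in WT (SD, n = 3 each), a log2 change of 0.80 ± 0.13 (SE) on the FPKM + 1 scale with an adjusted p of 0.0343 by limma. Maff averaged 3.2 ± 1.36 FPKM in IgAN and 0.392 ± 0.251 in WT, a log2 change of 1.56 ± 0.22 with an adjusted p of 0.0218. Maff entered the test through its IgAN values, and with no filter its adjusted p was 0.0884 and that of Klf6 was 0.0766, so neither was called. The size for Maff depended on scale, with a ratio of means of 8.17, or 12.8 without WT replicate 1, and a log2 change of 2.78 at a pseudocount of 0.1, 0.59 at a pseudocount of 5 and 3.09 by voom on the recovered reads. Over all tested genes 0.353% were called in either direction and 0.301% were called higher, and no enrichment is read from 2 calls among 9 members when 1 of them passed the filter through IgAN. The FPKM ranges of IgAN lay wholly above WT for Maff and Klf6, and for 9.18% of tested genes, and wholly below WT for 0 members and 4.8% of tested genes. The 2-sided exact permutation p was 0.1 for each of the 2 genes.

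Both calls were sensitive to the libraries used. Leaving out 1 library at a time, Maff stayed below 0.05 in 6 of 9 fits, with adjusted p from 0.0126 to 0.113, and lost its call without WT replicate 2, WT replicate 3 or IgAN replicate 3. Klf6 stayed below it in 1 of 9 fits, the one without WT replicate 1, with adjusted p from 0.0444 to 0.111. Without IgAN replicate 1 the log2 change was 1.32 with an adjusted p of 0.0461 for Maff and 0.67 with 0.0632 for Klf6. Both calls were also lost in a fit of the comparison's own libraries, at adjusted p of 0.0972 for Maff and 0.156 for Klf6. With 1 library left out the log2 change ran from 1.32 to 1.79 for Maff and from 0.67 to 0.88 for Klf6. Its sign could not turn, because every IgAN value lay above every WT value. Leaving out a GQYS library does not alter it at all.

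The other tested members were not called between IgAN and WT. Atf3 gave a log2 change of 1.0 with an adjusted p of 0.392, and Junb gave 0.80 with 0.601. Without WT replicate 1 these were 1.42 with 0.0954 for Atf3 and 1.38 with 0.0635 for Junb. Without IgAN replicate 1 they were 0.58 with 0.786 for Atf3 and 0.48 with 0.914 for Junb. Fos at -0.15, Jun at -0.26, Ier2 at -0.026 and Ier3 at -0.11 changed sign without WT replicate 1, to 0.45, 0.18, 0.64 and 0.23. The ranges of IgAN lay wholly above the remaining WT libraries for 6 of 10 members, adding Fosb, Junb, Atf3 and Ier2, where the same held for 18.7% of tested genes. Fosb was not a tested gene, and Atf3 and Maff entered the test through IgAN, so no enrichment is read from these 6. The median log2 change of the 9 tested members was -0.026, with 0.021 over all tested genes.

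**Figure D5:**
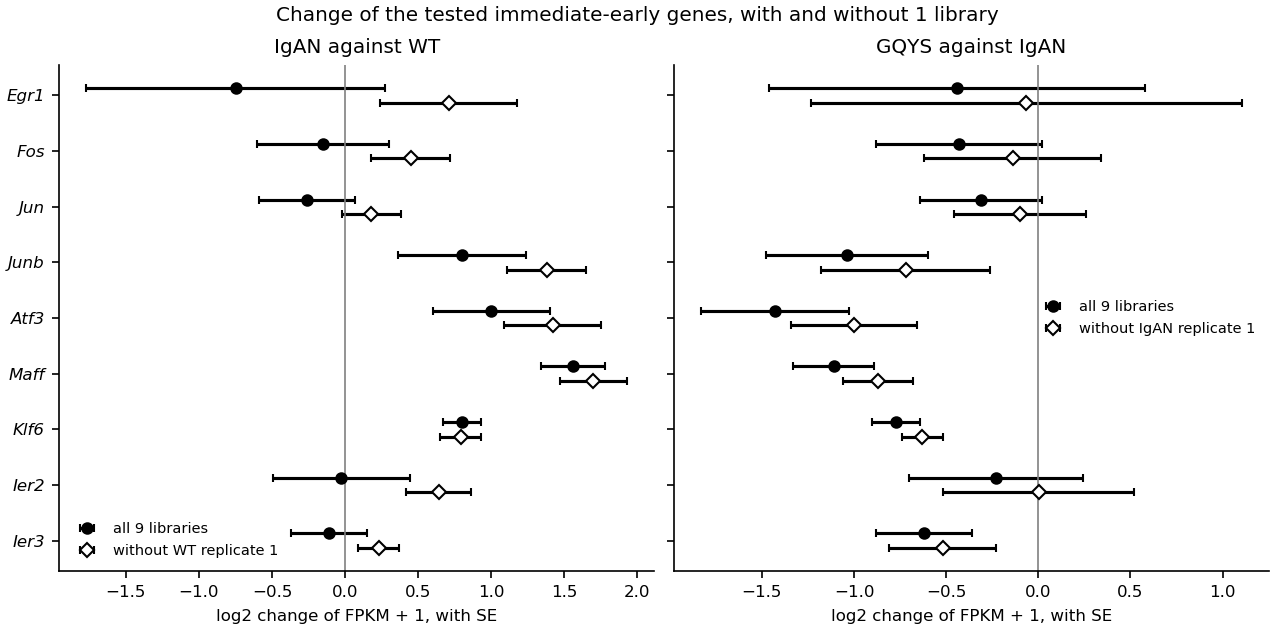
Log2 change of FPKM + 1, with its standard error, for the 9 tested members, IgAN against WT on the left and GQYS against IgAN on the right. Filled points use all 9 libraries and open points leave out WT or IgAN replicate 1. On the left Egr1 goes to 0.71 without WT replicate 1 while Klf6 stays near 0.80, and on the right the points of Junb, Atf3, Maff, Klf6 and Ier3 lie left of 0 in both fits.

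Junb, Atf3, Maff, Klf6 and Ier3 had less FPKM in every GQYS library than in any IgAN library, but 0 of the 9 tested members passed the test. The limma fit called 0.198% of all tested genes here. An unadjusted p under 0.05 was reached by 5 of 9 members, namely Klf6, Maff, Atf3, Ier3 and Junb, and by 10.4% of all tested genes, and voom on the recovered reads called 0 of the members. Maff and Atf3 entered the test through their IgAN values, so no enrichment is read from the 5 of 9. Klf6 came nearest, at 7.47 ± 0.449 FPKM in GQYS and 13.6 ± 2.52 in IgAN, with a log2 change of -0.77 ± 0.13 and an adjusted p of 0.0548. Without WT replicate 1, which belongs to neither group but enters the shared estimate of spread, the adjusted p of Klf6 was 0.0346. That was the only 1 of 9 fits with 1 library left out to call it, and the others gave adjusted p up to 0.292.

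Maff averaged 0.891 ± 0.198 FPKM in GQYS and 3.2 ± 1.36 in IgAN, a log2 change of -1.11 with an adjusted p of 0.106. Atf3 averaged 0.642 ± 0.103 FPKM in GQYS and 3.84 ± 2.67 in IgAN, a log2 change of -1.43 with an adjusted p of 0.218. Ier3 gave -0.62 with 0.435 and Junb gave -1.04 with 0.450. Without IgAN replicate 1, the outlying library of this comparison, the log2 changes were nearer 0, at -0.63 with an adjusted p of 0.109 for Klf6, -0.87 with 0.235 for Maff, -1.0 with 0.533 for Atf3, -0.52 with 0.806 for Ier3 and -0.72 with 0.873 for Junb. The ranges of GQYS lay wholly below IgAN for 6 of 10 members, those 5 and Fosb, where 9.29% of tested genes did so, and wholly above IgAN for 0 members and 9.84% of tested genes. No other member joined them without IgAN replicate 1, where 12.7% of tested genes lay wholly below. None of the 6 could be lost there, since leaving out a library cannot make separate ranges overlap. Fosb was not a tested gene, and Maff and Atf3 were tested because they are high in IgAN, so no enrichment is read from these 6. Egr1, Fos, Jun and Ier2 overlapped, with log2 changes from -0.44 to -0.23, and from -0.14 to 0.0012 without IgAN replicate 1. All 9 changes were below 0, with a median of -0.62 and a median over all tested genes of 0.0064. This comparison shares the IgAN libraries with the one before it, so the values of both are not independent of each other.

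Between GQYS and WT the fit called 0 members and 0% of all tested genes, and voom called 0 genes too. At an unadjusted p under 0.05 there were 515 genes, 4.43%, among them 1 member. That member was Ier3, at 19.9 ± 1.41 FPKM in GQYS and 35.9 ± 16.6 in WT, with a log2 change of -0.73 and an adjusted p of 0.999. Ier3 ranges lay wholly below WT, as for 2.61% of tested genes, and Maff ranges lay wholly above WT, as for 7.14%. Maff had a log2 change of 0.45 ± 0.22, with an adjusted p of 0.999. Klf6 had a log2 change of 0.033 ± 0.13, with means of 7.47 FPKM in GQYS and 7.27 in WT. The sign for Egr1, Fos, Junb and Ier2 turned positive without WT replicate 1.

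Some summed lists also stood higher or lower in the IgAN libraries. Heat shock genes, a list of 13, summed to 2455 to 3081 FPKM in GQYS, 3963 to 4414 in IgAN and 2004 to 2927 in WT. Some stress-inducible members of that list were also high in WT replicate 1. Hspa1a was at 5.71, 4.51 and 5.49 FPKM in GQYS, at 65.7, 47.4 and 56.4 in IgAN and at 67.3, 4.44 and 18.3 in WT, and it has a near-identical copy, Hspa1b, that could share reads. Dnajb1, an HSP70 co-chaperone, was at 14.2, 16.5 and 13.9 FPKM in GQYS, at 42.4, 28.4 and 30.5 in IgAN and at 43.3, 14.4 and 25.9 in WT. Both were highest in WT replicate 1, by a small margin over IgAN replicate 1, and were named after their values were seen. Egr1, Fos, Jun, Ier2 and Ier3 were also highest in WT replicate 1. Hspa1b was not, at 85.5 FPKM in WT replicate 1 and at 103, 105 and 99.5 in IgAN. The mean z-score of the heat shock list was 0.032 in WT replicate 1 and 0.91, 1.06 and 1.09 in IgAN. Neutrophil markers, of which 5 of 6 were in the table, summed to 2.49 to 3.38 FPKM in GQYS, 26.9 to 33.9 in IgAN and 1.16 to 3.66 in WT, with Ly6g at 0 in all GQYS and WT libraries. Macrophage markers, all 5 above 0 in each library, summed to 42.1 to 48.5 FPKM in GQYS, 57.6 to 84.7 in IgAN and 32.5 to 66.1 in WT. Collecting duct markers summed to 132 to 136 FPKM in GQYS, 147 to 231 in IgAN and 133 to 146 in WT, and B cell markers summed to 1.24 to 1.99, 0.360 to 0.725 and 1.09 to 2.16 FPKM in the same order. As mean z-scores, which weigh each gene alike, the collecting duct markers overlapped. They were at -0.20, 1.46 and 0.0023 in IgAN and at -0.52, 0.053 and 0.19 in WT. The part of these lists in the members' values was not tested. In whole-kidney RNA more cells of a type and more RNA per cell cannot be told apart.

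The wider list of immediate-early genes held 46 tested genes. Between IgAN and WT 3 passed, all higher, where 0.353% of all tested genes were called, namely the cytokine signalling inhibitor Socs3, the acute-phase factor Cebpd and the kinase Pim1, with log2 changes of 2.04, 1.62 and 0.98. Their adjusted p by limma were 0.00292, 0.0136 and 0.0369. Rhob, a small GTPase, had a log2 change of 0.74 with an adjusted p of 0.0730. Between GQYS and IgAN 2 passed, both lower, Socs3 at -1.86 with an adjusted p of 0.00669 and Cebpd at -1.72 with 0.0123, and between GQYS and WT 0 passed by limma. At an unadjusted p under 0.05 there were 17 of 46 for IgAN against WT, with 10.3% of all tested genes, 17 for GQYS against IgAN, with 10.4%, and 5 when GQYS was set against WT, with 4.43%. The median log2 change of the list was 0.30, -0.36 and 0.0035 in these comparisons. The list was chosen with earlier results of these data known, so no enrichment is read from its counts or medians. Socs3 passed in 9 of 9 fits with 1 library left out in both comparisons, but with no filter its adjusted p for GQYS against IgAN was 0.0563. Cebpd lost its call for IgAN against WT without WT replicate 2 or 3, with adjusted p up to 0.0666, and for GQYS against IgAN without any 1 of the GQYS libraries, with adjusted p up to 0.0839. It also lost the call with no filter, at 0.0731 for IgAN against WT and 0.0778 for GQYS against IgAN, and for IgAN against WT in a fit of the comparison's own libraries, at 0.0786. Pim1 held its call only without WT replicate 1 or GQYS replicate 1, with adjusted p up to 0.143 among fits with 1 library left out. It lost the call as well with no filter at 0.108, with quantile normalization at 0.0519, with the comparison's own libraries at 0.0998 and with both outlying libraries left out at 0.0676. Socs3 was at 0.884, 0.728 and 1.13 FPKM in GQYS, at 8.68, 5.24 and 4.46 in IgAN and at 0.926, 0.738 and 0.426 in WT. Socs3 was highest of WT in replicate 1, yet every WT library lay below every IgAN library. Outside IgAN only GQYS replicate 3 reached 1 FPKM of Socs3, so Socs3, like Maff, was tested because it is high in IgAN.

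Of 21 tested genes for inputs of the early response, 0 passed by limma in any comparison. The list held serum response factor, its cofactors, upstream kinases and other factors such as Creb1 and Stat3. At an unadjusted p under 0.05 there were 2 for IgAN against WT, 2 for GQYS against IgAN, and 0 when GQYS was set against WT. The shares of all tested genes were 10.3%, 10.4% and 4.43%. Stat3, which drives Socs3 and Junb after cytokines, averaged 12.5 ± 1.48 FPKM in GQYS, 21.1 ± 5.06 in IgAN and 13.3 ± 2.61 in WT. It had the smallest p by limma for IgAN against WT and for GQYS against IgAN, with adjusted p of 0.24 and 0.205. Among 19 tested partners and antagonists of AP-1, MAF and EGR proteins 0 passed by limma in any comparison, with 7 at an unadjusted p under 0.05 for IgAN against WT, 5 for GQYS against IgAN, and 2 when GQYS was set against WT, beside those same shares. The AP-1 repressor Jdp2 averaged 1.68 ± 0.0926 FPKM in GQYS, 3.07 ± 0.744 in IgAN and 1.52 ± 0.209 in WT, and Mafk, a small MAF protein like Maff, averaged 3.42 ± 0.226, 4.11 ± 0.176 and 2.91 ± 0.00129 FPKM in the same order. Of 21 tested textbook targets of AP-1 and EGR1, 2 rose in IgAN against WT and 2 fell in GQYS against IgAN, in both cases the chemokine Ccl2 and the adhesion molecule Icam1, where 0.353% and 0.198% of all tested genes were called. Ccl2 was at 1.07, 0.691 and 0.871 FPKM in GQYS, at 7.71, 8.35 and 8.75 in IgAN and at 2.79, 1.49 and 0.321 in WT. Its log2 change was 2.0 for IgAN against WT with an adjusted p of 0.0292, and -2.31 for GQYS against IgAN with an adjusted p of 0.0167. Icam1 had a log2 change of 1.13 for IgAN against WT with an adjusted p of 0.0172, and -1.01 for GQYS against IgAN with 0.0457. For IgAN against WT, Ccl2 held its call only without WT replicate 1 or WT replicate 3, and Icam1 lost it without WT replicate 2, IgAN replicate 1 or IgAN replicate 3. For GQYS against IgAN, Ccl2 held it only without 1 of the WT libraries, and Icam1 only without WT replicate 1 or WT replicate 3, with adjusted p up to 0.1 and 0.16. For IgAN against WT the call of Ccl2 was lost at a pseudocount of 0.1 with 0.0834, with no filter at 0.109, with the comparison's own libraries at 0.124 and by voom at 0.0648, and that of Icam1 with no filter at 0.0709, with quantile normalization at 0.0531 and with the own libraries at 0.0786. For GQYS against IgAN the call of Ccl2 was lost at a pseudocount of 0.1 with 0.0867, with no filter at 0.101 and by voom at 0.0613. That of Icam1 was lost there at a pseudocount of 0.1 with 0.0542, with no filter at 0.109, with quantile normalization at 0.0883 and with median-of-ratios scaling at 0.0630. Both genes also answer to NF-kappaB, and the binding of AP-1 or EGR1 was not measured. The lists in this paragraph were also chosen with earlier results known, so no enrichment is read from their counts.

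The genes most like the members were sought by Pearson correlation with the mean z-score of the 9 tested members. Over all 9 libraries the closest were Abhd11, Plekhg2 and Jmjd6, with r of 0.981, 0.977 and 0.967. Over the 8 libraries without WT replicate 1 the closest were the kinase regulator Trib1, the collagen gene Col6a2 and the matrix gene Tnc, with r of 0.992, 0.991 and 0.991, and Nab2, a co-repressor of EGR proteins, followed with 0.984. The score was 1.26 in IgAN replicate 1 and 1.33 in WT replicate 1 over 9 libraries, with -0.74 to 0.23 in the rest. The first ranking therefore leans on 2 libraries. Over 8 libraries the score was 1.86 in IgAN replicate 1 and -0.75 to 0.42 in the rest, so the second leans on 1. Nab2 was at 28.5 FPKM in IgAN replicate 1, with 5.43 to 9.19 FPKM elsewhere. Outside IgAN only GQYS replicate 3 reached 1 FPKM of Tnc, so Tnc was tested because it is high in IgAN. These values are descriptions, over libraries with 2 outlying points in the first ranking and 1 in the second.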

How the data were processed

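Total RNA of mouse kidney was extracted with TRIzol and made into libraries with a VAHTS kit (source: the labels' protocols). The deposited table, made by the authors, gives FPKM values for 26139 genes in 9 libraries. Build GRCm39, R 3.2.0, DESeq2, HTSeq, HISAT2 and fastp are named, without roles, per the submitters' processing notes. Annotation and strand setting were not found in these sources, so antisense overlaps cannot be separated. Library names in the labels gave each column its group.

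Values were tested as log2(FPKM + 1), a pseudocount of 1, with limma 3.58.1 in R 4.3.3 (trend, one model of all 9 libraries) on the 11617 genes that reached an FPKM of 1 in 3 or more libraries. FPKM divides by library total, so abundant genes can shift others. Low FPKM values moved in steps, from which whole reads were recovered for 26137 genes within 0.03 reads; voom was run on them as an alternative. No 2 columns were identical. The model was tested on simulated reads with the same scatter setting for every gene and no outlying library, so that test does not cover the outlying libraries here.

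Members and lists were chosen with earlier results of these data known. Named from the lists were genes past the threshold and up to 4 with the smallest p for IgAN against WT, and the 8 genes most like the members. Some genes the rule names are left out of the text, and genes outside it are said to be named after their values were seen. Egr4 and Mpo had no row, and older symbols of Ccn1, Ccn2, Mrtfa and Mrtfb were not counted again. Promoter windows, without those of chromosome 18, come from RefSeq on GRCm38.p6, another build than the authors' GRCm39, and no coordinates were converted. Alternatives covered the pseudocount, filter, scaling, replicate block, samples in the fit, library weights, voom and libraries left out; ranges without 1 library were added after seeing the data. Figures were drawn with matplotlib 3.10.9 under Python 3.11.15.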

Additional observations from a re-analysis of the deposited data

How the results depend on the processing

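Over 20 alternative settings 1338 values were recomputed, of which 1182 kept their direction and their side of the threshold or moved little. For many of these the log2 change could not differ, since the filter and libraries outside a comparison do not enter it. Calls were lost or fewer for 82 values and gained or more for 33, and 7 moved further. Another 34 changed sign, all of members and none of a called result. The count of members called between IgAN and WT, 2, was 0 with no filter on low values, 0 with only the libraries of the comparison, 4 with library quality weights, 4 with both libraries that stand apart left out, and 0 to 2 with 1 library left out. Between GQYS and IgAN the count of 0 became 3 with weights, 2 with both left out and 0 to 1 with 1 library left out. Members gained under weights or with both left out were Junb and Atf3 for IgAN against WT, Atf3 and Klf6 for GQYS against IgAN, and Maff there under weights alone. The cause was not tested. Leaving out both libraries changed the sign for IgAN against WT of Egr1 (0.33), Fos (0.16), Ier2 (0.41) and Ier3 (0.14), for GQYS against IgAN of Ier2 (0.0012), and for GQYS against WT of Egr1 (0.27), Fos (0.021), Junb (0.34) and Ier2 (0.42). Weights changed it for IgAN against WT of Fos (0.12), Jun (0.12), Ier2 (0.33) and Ier3 (0.14), for GQYS against IgAN of Egr1 (0.047), and for GQYS against WT of Egr1 (0.016), Junb (0.36), Atf3 (0.0057) and Ier2 (0.33). A pseudocount of 0.1 gave 0.0089 for Ier2 in IgAN against WT, and median-of-ratios scaling gave -0.00036 for Klf6 in GQYS against WT. With 1 library left out the log2 change in IgAN against WT ran from -1.80 to 0.71 for Egr1, -0.57 to 0.45 for Fos, -0.53 to 0.18 for Jun, -0.45 to 0.64 for Ier2 and -0.35 to 0.23 for Ier3. In GQYS against IgAN it ran from -0.34 to 0.0012 for Ier2. In GQYS against WT it ran from -2.24 to 0.27 for Egr1, -1.0 to 0.021 for Fos, -0.55 to 0.34 for Junb and -0.68 to 0.42 for Ier2. The replicate block called 2 members and 68 of all tested genes in IgAN against WT, 0 and 26 in GQYS against IgAN, and 0 and 0 with GQYS set against WT, where the fit without it called 41, 23 and 0 of all tested genes. Libraries with the same number correlated at -0.364 to 0.581 in their deviations from group means, and nothing in the labels pairs them. Over all tested genes, calls for IgAN against WT were 21 with no filter, 11 with only the libraries of the comparison and 655 with weights, and for GQYS against IgAN they were 13, 43 and 404, with 63 when both libraries were left out and 15 at a pseudocount of 0.1. Weights gave 53 calls for GQYS against WT, and voom gave 33, 16 and 0. Ranges apart without 1 library were chosen after seeing the data, and moved the count of members wholly above WT to 6. Depth limits Fosb most, with 1 read in GQYS replicate 2.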
